A study of Arabidopsis thaliana with 28 samples.

Results

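The comparison described here asks what overexpression of the transcription factor CBF1 did to transcript levels in Arabidopsis thaliana plants that were never chilled. Of the 28 samples of the series, 8 enter it, chosen by their titles: 4 samples of warm plants overexpressing CBF1, called CBF1OX below, and 4 samples of warm wild-type plants. CBF1OX is represented by 2 transgenic lines with 2 samples each, G5 (replicates 1 and 2) and G39 (replicates 3 and 4). All 8 samples are the entire aerial part of plants of the accession Ws-2, 11 d old and raised at 22 °C under constant light (about 100 µmol m-2 s-1). Where the text sets CBF1OX beside other groups, these are warm Ws-2 plants of the same age, tissue and light that overexpress CBF2 (lines E2 and E24) or CBF3 (lines A28 and A30), 2 samples a line, and 4 wild-type samples moved to 4 °C for 24 h under dimmer constant light (about 35 µmol m-2 s-1). Cold samples differ from warm ones in light as well as in temperature. Neither the promoter that drives the transgene nor the pooling of plants is given in the sources used here. The labels speak of biological replicates, so the p-values below measure the spread between samples. For the pooled group this spread includes the difference between lines of a construct, but the fit counts the 4 samples of 2 lines as independent. For comparisons of single lines the spread is only that between samples of the same line or wild-type group. Those p-values therefore do not measure the spread between independent lines. The models were fitted to all 28 samples, so that spread also draws on 8 samples not described here, from plants overexpressing CBF2Δc, a truncated CBF2 labelled CBF2DN (lines DN89 and DN96, 4 samples warm and 4 after the same cold). Each construct is known here from only 2 lines.

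CBF1, also called DREB1B, belongs to the AP2/ERF family and binds the CRT/DRE element in the promoters of cold-regulated genes. In wild-type plants the CBF genes are switched on within hours of a drop in temperature, and their targets include the COR genes, which encode hydrophilic proteins that protect membranes and enzymes during freezing, and genes of sugar metabolism. Plants that make CBF proteins without cold are known for freezing tolerance in the warm, and often for small stature.

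Values are log2 expression from Affymetrix arrays, so a difference of 1 is a 2-fold change. A feature was called when its Benjamini-Hochberg adjusted p from limma was below 0.05 over all 14578 features tested and its change was at least 2-fold, and the words rose, fell and called are used only in this sense. Of the features tested, 7898 were named genes and 6680 were probe sets to which the annotation used here gives no gene or several. Array medians ran from 4.98 to 5.08. The 2 arrays of G5 correlated at 0.987 over all features and those of G39 at 0.991, while arrays of different CBF1OX lines correlated at 0.953 to 0.955. G5 arrays correlated with warm wild type at 0.973 to 0.986 and G39 arrays at 0.930 to 0.936. Only 1 of 8 leaf markers had a named probe set, RCA, which encodes Rubisco activase, and it stood between 13.33 and 13.65 in all 8 samples.

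The introduced gene could not be followed by name, because CBF1 has no named probe set here. Among unnamed probe sets, 254074_at was the 1 that rose by at least 4 in CBF1OX and differed by less than 2-fold from warm wild type in both CBF2OX and CBF3OX. It was chosen by these values, so its level against wild type is a description. It stood at 7.74 and 6.95 in G5, at 9.92 and 9.87 in G39, and at 2.19, 2.19, 2.30 and 2.30 in warm wild type, near the lowest values of the table. Both G39 samples lay above both G5 samples. The difference from wild type was 5.10 in G5 and 7.65 in G39. The difference between the lines, which the choice did not use, was 2.55 ± 0.18 (SE, adjusted p = 4.4e-09), a ratio of 5.86. In the cold wild type it differed from warm wild type by 0.14 ± 0.38, which was not called. No gene name is given to it here, and whether it measures the introduced gene was not tested.

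With the 4 CBF1OX samples taken as a group, 263 features rose (1.8% of those tested) and 106 fell (0.727%), of which 128 and 42 were named genes. The groups did not overlap for 1520 features (10.4%), and 304 (2.09%) were both called and free of overlap. The lines gave very different counts. In G5, 68 features rose (0.466%) and 8 fell (0.0549%). In G39, 579 rose (3.97%) and 596 fell (4.09%). G39 was higher than G5 for 363 features (2.49%) and lower for 495 (3.4%), in a contrast that contains no wild-type sample. For comparison with warm wild type in the same fit, 1.71% of features rose and 0.789% fell in CBF2OX, 1.94% and 1.66% in CBF3OX, and 8.74% and 9.67% in the cold wild type. The pooled fit counts 2 samples of a line as independent, and with each line's mean as 1 sample 140 features rose and 23 fell. Counts for the pooled group also depended on which samples entered the fit: with only the 8 samples compared, 27 features rose and 8 fell. Leaving out G39 replicate 3 or 4 gave 130 or 124 rises and 20 or 16 falls, and leaving out G5 replicate 1 or 2 gave 214 or 262 falls. Without wild-type replicate 1, 2 or 4 the falls numbered 67, 53 or 61. The values per line are therefore given first below.

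Among the features called for the pooled group, the change was larger in G39 for nearly all. A feature that moves in opposite directions in the lines averages out and tends not to be called there, so these features say nothing about how often the lines share a direction. All 263 raised features had a higher mean in G39 than in G5, and for 195 of them (74.1%) the line difference itself was called. None was called lower in G39, also at an unadjusted p below 0.05. Their median change was 0.74 in G5 and 2.16 in G39, where the medians over all features were 0.012 and 0.008. The raised features were chosen by the mean of these same changes, so medians above those of all features follow from the choice. Of the 106 lowered features, 105 had a lower mean in G39, with the line difference called for 76 (71.7%) and called in the opposite direction for 0, with 1 at an unadjusted p below 0.05. The median changes of the lowered features were -0.58 in G5 and -1.97 in G39, and their sign likewise follows from the choice.

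**Figure D1:**
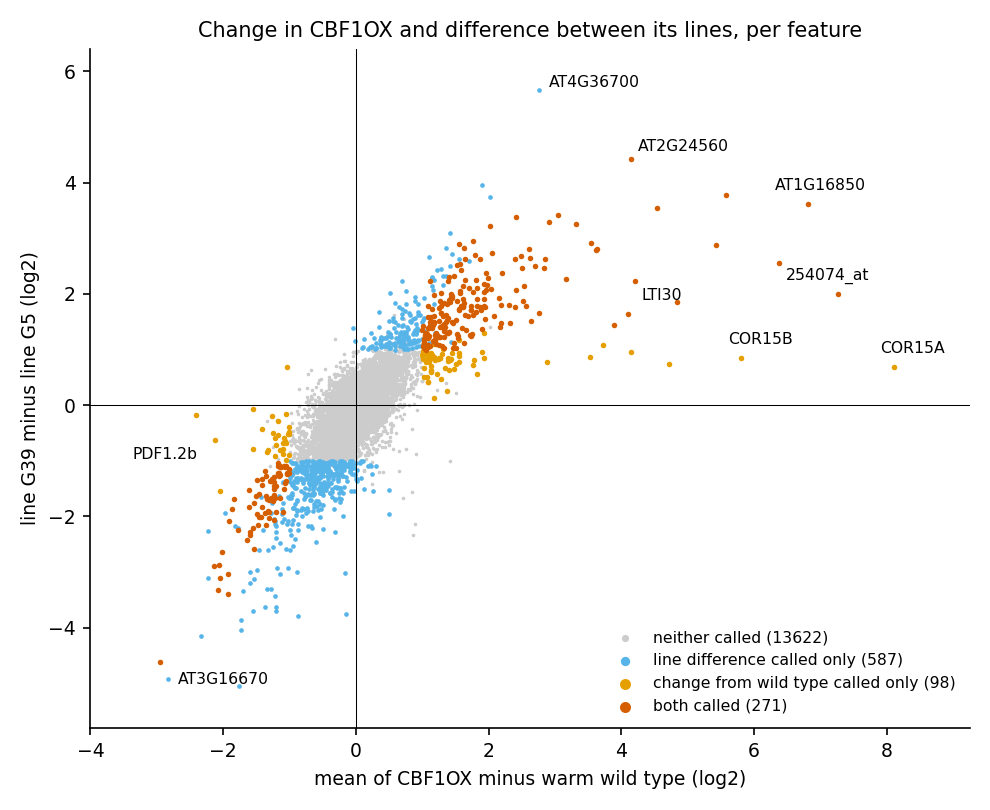
Each point is 1 of the 14578 features tested. The horizontal axis is the change in the pooled CBF1OX group against warm wild type (log2) and the vertical axis is line G39 minus line G5 (log2). The lowest line difference, -6.82, lies below the plotted range. Features whose change from wild type was called lie mostly in the upper right and lower left, where G39 moved farther than G5, while COR15A and COR15B lie far to the right with a small line difference.

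The cold-protective COR genes rose in both lines, and the strongest of them rose nearly as far in G5 as in G39. COR15A, which encodes a protein of the chloroplast stroma that protects membranes during freezing, stood at 12.48 and 11.97 in G5, 12.89 and 12.94 in G39, and 5.01, 4.27, 4.29 and 4.29 in warm wild type. Every CBF1OX sample was far above every wild-type sample. The change was 7.76 ± 0.26 in G5 (adjusted p = 2.7e-15), a 217-fold rise, and 8.45 ± 0.26 in G39 (adjusted p = 2.3e-16), a 350-fold rise. The line difference of 0.69 ± 0.30 was not called (adjusted p = 0.17), and its 95% interval ran from 0.06 to 1.32. COR15B, its close relative, stood at 11.97 and 11.48 in G5, 12.56 and 12.59 in G39, and 6.13, 6.77, 5.97 and 6.50 in wild type. It rose by 5.38 ± 0.22 in G5 and 6.23 ± 0.22 in G39, and the lines differed by 0.85 ± 0.25 (adjusted p = 0.028), which is less than 2-fold. Probe set 246481_s_at, whose probes the annotation assigns jointly to the cold-induced genes KIN1 and KIN2 and so to neither alone, was looked at after its values were seen. It rose by 4.36 ± 0.31 in G5 and 5.09 ± 0.31 in G39, with a line difference of 0.73 ± 0.35 (adjusted p = 0.23).

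**Figure D2:**
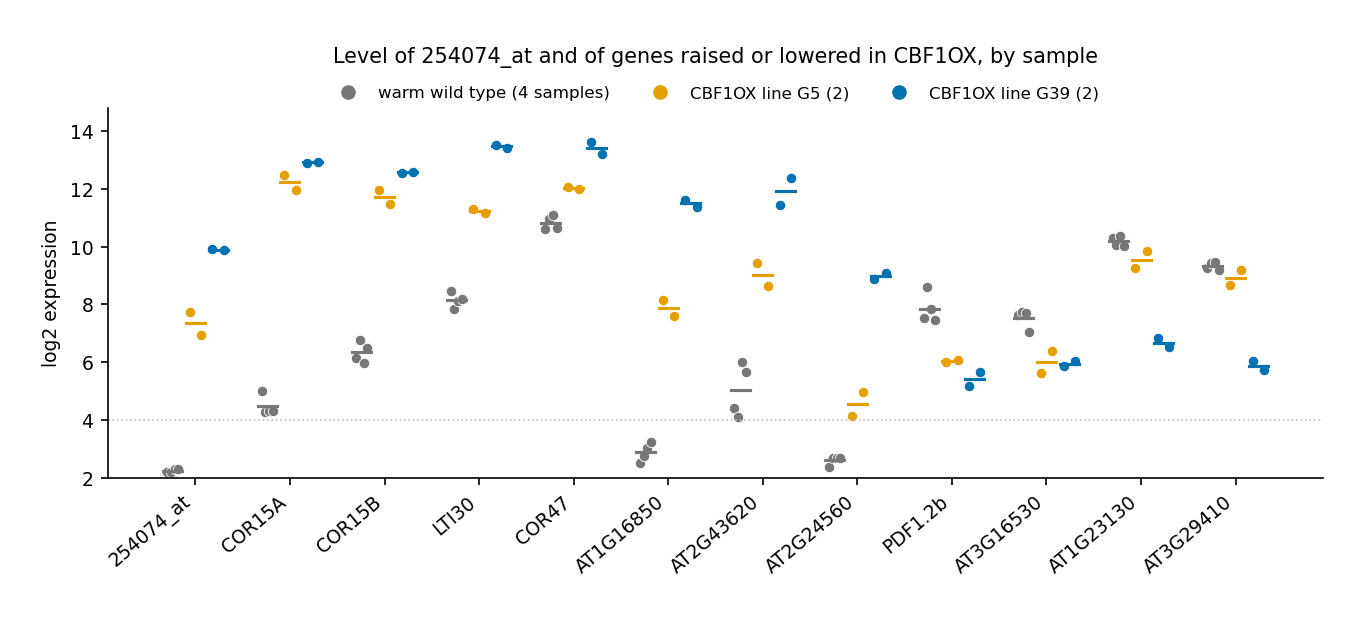
Each point is the log2 expression of 1 sample for the feature named on the horizontal axis, in warm wild type (grey, 4 samples) and in CBF1OX lines G5 (orange, 2) and G39 (blue, 2), with bars at the group means and a dotted line at log2 4, the level used to filter dim features. COR15A is less than 2-fold higher in G39 than in G5, a difference that was not called. 254074_at, LTI30, AT1G16850 and AT2G24560 are clearly higher in G39, and PDF1.2b and AT3G16530 are below wild type in both lines.

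LTI30 and COR47 encode dehydrins, hydrophilic proteins that accumulate in dehydrating and cold tissue, and both were called higher in G39 than in G5. LTI30 stood at 11.29 and 11.17 in G5, 13.52 and 13.42 in G39, and 8.46, 7.85, 8.10 and 8.17 in wild type. It rose by 3.08 ± 0.17 in G5 (adjusted p = 1.3e-11) and 5.33 ± 0.17 in G39 (adjusted p = 2.3e-16), and the line difference of 2.24 ± 0.19 was called (adjusted p = 4.8e-08). COR47 began from a high level in warm wild type, 10.62, 10.95, 11.09 and 10.63, and reached 12.07 and 12 in G5 and 13.61 and 13.19 in G39. Its rise was 1.21 ± 0.17 in G5 and 2.58 ± 0.17 in G39, a called line difference of 1.36 ± 0.19 (adjusted p = 3.3e-05). Of the 13 CBF target genes listed, 5 had a named probe set and were tested. Of these, 4 rose in G5 and all 5 in G39, where 0.466% and 3.97% of all features rose, with median changes of 3.08 and 5.33. The member not called in G5 was TIL, a temperature-induced lipocalin, with 0.38 ± 0.16 in G5 (adjusted p = 0.46) and 1.01 ± 0.16 in G39 (adjusted p = 4.2e-05). The change of TIL in G39 fell under 2-fold, and so was not called, when any 1 of 3 samples was left out: it was 0.86 without G39 replicate 4, 0.97 without wild-type replicate 1 and 0.99 without wild-type replicate 2. It was also 0.88 with the replicate block and 0.99 with arrays centred on their medians.

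Among 13 listed dehydrin and LEA genes, 4 were tested, with COR47 and LTI30 counted here too. 2 rose in G5 and 3 in G39, beside 0.466% and 3.97% of all features. DI21, a drought-induced LEA-type gene, changed by 0.83 ± 0.24 in G5 (adjusted p = 0.14) and rose by 1.42 ± 0.24 in G39 (adjusted p = 9.3e-05). LEA4-5, a late embryogenesis abundant gene, was not called in either line: its G5 samples stood apart from each other at 5.43 and 2.76, with 4.52 and 4.1 in G39 and 2.23 to 2.96 in wild type. AT3G02480, a LEA-related gene, had the same split, 10.09 and 7.70 in G5, beside 9.75 and 10.22 in G39 and 4.67, 4.66, 7.08 and 6.43 in wild type. It rose in the pooled group by 3.73 ± 0.76 (adjusted p = 0.0041, but 0.072 with only the 8 compared samples fitted and 0.057 with each line's mean as 1 sample) and in G39 by 4.28 ± 0.89 (adjusted p = 0.0011), but the change of 3.19 ± 0.89 in G5 was not called (adjusted p = 0.13). In both genes G5 replicate 1 was the higher sample.

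Of the genes with a name outside these lists, AT1G16850 rose most in the pooled group. It stood at 8.15 and 7.60 in G5, 11.62 and 11.37 in G39, and 2.49, 2.75, 3.03 and 3.24 in warm wild type. AT1G16850 rose by 5.0 ± 0.25 in G5 and 8.62 ± 0.25 in G39, and the lines differed by 3.62 ± 0.29 (adjusted p = 2.5e-08), so that G39 held 12.3 times the G5 level. Folds that start from such low values depend on the floor that the background correction sets.

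AT2G43620, of the chitinase family, stood at 9.42 and 8.63 in G5, 11.44 and 12.38 in G39, and 4.40, 4.09, 6.0 and 5.66 in wild type. It rose by 3.99 ± 0.43 in G5 and 6.87 ± 0.43 in G39. AT2G24560, a GDSL-type lipase, showed the larger line gap: 4.12 and 4.98 in G5, 8.87 and 9.07 in G39, and 2.37 to 2.69 in wild type. It rose by 6.36 ± 0.37 in G39 (adjusted p = 1.9e-11) and by 1.94 ± 0.37 in G5 (adjusted p = 0.0069), the latter not called without G5 replicate 2, where the change was 1.51, or with no filter on low values.

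Further genes among the 15 highest rose in both lines. AT3G55760, a gene of leaf starch metabolism, rose by 1.88 ± 0.24 in G5 and 3.39 ± 0.24 in G39. AT1G48100, of the polygalacturonase family that acts on pectin, rose by 2.23 ± 0.34 and 5.01 ± 0.34. AT4G30650, a member of a small family of low-temperature and salt responsive membrane proteins, rose by 1.67 ± 0.25 and 3.45 ± 0.25. For AT1G80130 the lines lay close, with rises of 2.49 ± 0.28 and 3.27 ± 0.28 and a line difference of 0.78 ± 0.33 (adjusted p = 0.15, 95% interval 0.10 to 1.46). The other genes of this set were AT1G68500 (2.24 in G5 and 5.04 in G39), AT1G51090 (2.04 and 4.3), AT2G16990 (1.3 and 3.95) and AT3G17130 (1.69 and 4.95), all called in both lines. AT3G17130 was not called in G5 without replicate 1, where its change was 1.23. The unnamed probe set that rose most was 264511_at, by 6.27 ± 0.30 in G5 and 8.27 ± 0.30 in G39.

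Few features fell in G5. The 8 falls of G5 held 3 named genes, which are named here after their values were seen: PDF1.2b, AT3G16530 and AT2G29370. PDF1.2b encodes a plant defensin, an antimicrobial peptide of jasmonate and ethylene responses, and was measured by a probe set that may cross-hybridise with near-identical copies. It stood at 5.99 and 6.08 in G5, 5.18 and 5.65 in G39, and 7.51, 8.60, 7.83 and 7.44 in wild type. It fell by 1.81 ± 0.31 in G5 (adjusted p = 0.002) and by 2.43 ± 0.31 in G39 (adjusted p = 2.8e-06), with a line difference of -0.62 ± 0.35 (adjusted p = 0.34, 95% interval -1.35 to 0.11). The related probe set of PDF1.2 changed by -0.77 ± 0.27 in G5 (adjusted p = 0.34) and -1.25 ± 0.27 in G39 (adjusted p = 0.0014), the latter -0.68 and not called without G39 replicate 4. These were the 2 tested members of 17 listed defence genes.

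AT3G16530, of the legume lectin family, stood at 5.63 and 6.39 in G5, 5.85 and 6.04 in G39, and 7.63, 7.72, 7.69 and 7.05 in wild type. All CBF1OX samples were below all wild-type samples and the lines lay among each other. It fell by 1.51 ± 0.29 in G5 (adjusted p = 0.0069) and by 1.58 ± 0.29 in G39 (adjusted p = 0.00026), and the lines differed by -0.07 ± 0.33 (95% interval -0.75 to 0.62). AT2G29370 stood at 4.67 and 4.82 in G5, 5.37 and 5.49 in G39 and 5.90 to 6.43 in wild type, and it fell by 1.39 ± 0.22 in G5 (adjusted p = 0.0011) while the change in G39 was -0.70 ± 0.22. Unnamed probe set 245038_at fell in G5 (-2.32 ± 0.43) and in G39 (-2.49 ± 0.43). Without G5 replicate 1 none of these 4 falls in G5 was called, with changes of -1.77 for PDF1.2b, -1.13 for AT3G16530, -1.31 for AT2G29370 and -2.27 for 245038_at, and 245038_at also lost its call without G5 replicate 2, at -2.38.

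Most falls came from G39. AT1G23130 stood at 9.25 and 9.84 in G5, 6.82 and 6.51 in G39, and 10.30, 10.04, 10.35 and 10.01 in wild type. Its change was -0.63 ± 0.23 in G5 (adjusted p = 0.37) and -3.51 ± 0.23 in G39 (adjusted p = 1.3e-10). AT3G29410, of the terpene synthase family, stood at 8.66 and 9.18 in G5, 6.04 and 5.72 in G39, and 9.25, 9.43, 9.45 and 9.20 in wild type. It fell by 3.45 ± 0.20 in G39 and changed by -0.41 ± 0.20 in G5. For both genes the G5 samples lay just below wild type and the G39 samples far below.

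GAMMA-VPE, a vacuolar processing enzyme, was an abundant transcript with a graded decrease: 12.03, 12.01, 11.87 and 11.95 in wild type, 11.40 and 11.08 in G5, and 9.97 and 9.97 in G39. It fell by 2.00 ± 0.13 in G39, and the change of -0.72 ± 0.13 in G5 had an adjusted p of 0.0048 but stayed under 2-fold. AT2G41090, a calmodulin-like calcium sensor, fell by 2.65 ± 0.34 in G39 and changed by -0.44 ± 0.34 in G5. AT5G59670, a receptor kinase with leucine-rich repeats, fell by 2.32 ± 0.17 in G39, with -0.69 ± 0.17 in G5 (adjusted p = 0.065). HAT2, a homeodomain-leucine zipper transcription factor of auxin and shade responses, fell by 1.93 ± 0.26 in G39 and changed by -0.48 ± 0.26 in G5.

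Of the other genes among the 15 lowest, AT1G09750, an aspartyl protease, AT2G39850, AT1G32090, AT2G03550, AT5G28630 and AT2G25735 fell in G39, by 1.36 to 2.18, and none was called in G5. AT2G25735 was not called in G39 without replicate 3 (-1.45) or replicate 4 (-1.28). The unnamed probe set that fell most in the pooled group was 256766_at, which stood at 9.32 and 9.43 in G5, 4.89 and 4.62 in G39 and 9.70 to 10.60 in wild type. Its pooled fall of 2.96 (adjusted p = 0.026) was lost under 9 of 18 alternatives, among them each line's mean as 1 sample, only the 8 compared samples, no filter on low values, each wild-type sample left out and each G39 sample left out (-2.23 and -2.14). The fall of 5.26 in G39 kept its call under all 15 alternatives run for it.

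Sugar transporters moved in both directions and, by the calls, in G39. Of 10 tested, 2 rose and 3 fell in G39, beside 3.97% and 4.09% of all features. In G5 limma called 0, with 3 higher and 2 lower at an unadjusted p below 0.05, beside 749 and 439 of all 14578 features. SWEET1, a plasma membrane sugar transporter, stood at 6.98 and 6.52 in G5, 8.43 and 8.31 in G39 and 5.68 to 6.09 in wild type. Its change was 0.84 ± 0.21 in G5 (adjusted p = 0.076) and 2.46 ± 0.21 in G39 (adjusted p = 9.9e-09). SWEET13, a sucrose transporter of the phloem, stood at 3.94 and 4.25 in G5 and 6.68 and 6.75 in G39, beside 3.65 to 4.2 in wild type.

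SWEET13 rose by 2.87 ± 0.27 in G39 and differed by 0.24 ± 0.27 from wild type in G5, so that the line difference of 2.62 ± 0.31 was called (adjusted p = 4.2e-06). SWEET16, a vacuolar sugar carrier, fell by 1.93 ± 0.20 in G39 and changed by -0.60 ± 0.20 in G5. SWEET11, another phloem sucrose transporter, and TMT1, which loads sugar into the vacuole, each fell by 1.16 ± 0.17 in G39. SAG29, also of the SWEET family, had the highest change of the list in G5, 1.92, with 0.92 in G39, and was not called in either line. The median over the 10 members was 0.04 in G5 and 0.07 in G39.

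In starch metabolism, 3 of 14 listed genes were tested. APL4, a large subunit of ADP-glucose pyrophosphorylase, stood at 4.26 and 3.54 in G5, 5.17 and 4.83 in G39 and 3.0 to 3.47 in wild type, and it rose by 1.73 ± 0.33 in G39 (adjusted p = 0.00045). APL3 and the branching enzyme gene SBE2.2 were not called in either line, with changes between 0.07 and 0.47. Among listed cold regulators other than the CBF genes, 2 were tested. PUB19, a U-box ubiquitin ligase of drought responses, rose by 1.91 ± 0.37 in G39 and changed by 0.43 ± 0.37 in G5. The zinc finger gene STZ was not called, at -0.26 ± 0.32 in G5 and 0.74 ± 0.32 in G39.

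Genes for the loosening and rebuilding of cell walls, expansins and XTH enzymes, split by line. Of 18 tested, none was called in G5, with 4 higher and 0 lower at an unadjusted p below 0.05, beside 749 and 439 of all 14578 features. In G39 3 rose and 3 fell, beside 3.97% and 4.09% of all features. The expansin-like gene EXLA2 stood at 4.1 and 4.15 in G5, 6.73 and 7.30 in G39 and 3.78 to 4.17 in wild type, and it rose by 2.99 ± 0.24 in G39 (adjusted p = 2.2e-09). XTH20 stood at 7.02 and 6.98 in G5, 9.21 and 9.29 in G39 and 6.26 to 6.76 in wild type, a rise of 2.77 ± 0.19 in G39. XTH32 changed by 0.82 ± 0.21 in G5 (adjusted p = 0.086) and rose by 1.65 ± 0.21 in G39.

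EXPA8 went the other way, at 8.58 and 8.94 in G5, 6.09 and 6.22 in G39 and 8.56 to 9.29 in wild type. It fell by 2.76 ± 0.30 in G39 (adjusted p = 3.2e-07) and differed from wild type by -0.15 ± 0.30 in G5. XTH19 fell by 1.29 ± 0.26 and XTH16 by 1.03 ± 0.29 in G39, the latter -0.88 without G39 replicate 3 and -0.99 without wild-type replicate 1, where it was not called. Between the lines, 3 wall genes were called higher in G39 and 5 lower, beside 2.49% and 3.4% of all features. Among them were EXLA1 (1.19 ± 0.37) and EXLB1, EXPA15 and EXPB3 (-1.1 to -1.01), which lost their calls with the replicate block and without 1 or more CBF1OX samples. The median of the 18 was 0.08 in G5 and -0.50 in G39.

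Of 9 tested glutathione transferases of the tau class, enzymes that conjugate glutathione to small molecules, 5 were called lower in G39 than in G5, beside 3.4% of all features. By limma 0 were called higher, also at an unadjusted p below 0.05, and 2 of the 9 had a higher mean in G39, by up to 0.41. GSTU25 stood at 7.39 and 7.62 in G5, 5.65 and 5.60 in G39 and 6.73 to 7.32 in wild type. GSTU26 stood at 6.52 and 6.38 in G5, 4.64 and 4.68 in G39 and 5.56 to 6.55 in wild type. In both genes the G39 samples were below all wild-type samples, while the G5 samples stood within or just above the wild-type range.

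Against wild type in G39, 5 fell, GSTU18, GSTU22, GSTU25, GSTU26 and GSTU28, by 1.03 to 1.57, and GSTU20 rose by 1.06 ± 0.30. Over all features 4.09% fell and 3.97% rose in G39. In G5 none was called, with 1 higher and 0 lower at an unadjusted p below 0.05, beside 749 and 439 of all 14578 features. GSTU28 was not called in G39 without replicate 3 (-0.92) or without wild-type replicate 2 (-0.93) or 3 (-0.94). GSTU20 was not called without G39 replicate 3 (1.2) or 4 (0.93) or wild-type replicate 2 (0.98) or 4 (0.85).

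Of 33 tested glycosyltransferases of the UGT family, 1 rose in G5 and 3 in G39, beside 0.466% and 3.97% of all features. UGT72B3 rose in both lines, from 5.30 to 5.68 in wild type to 6.99 and 6.89 in G5 and 9.24 and 8.94 in G39, changes of 1.46 ± 0.17 and 3.61 ± 0.17. UGT74D1 rose by 1.42 ± 0.21 in G39, and UGT71C3 by 1.11 ± 0.16, or 0.85 and not called without G39 replicate 3.

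Several other lists held 1 called member or none in each line. Over all features, 0.466% rose and 0.0549% fell in G5, and 3.97% and 4.09% in G39. Of 9 tested genes of photosynthesis, LHCB4.2, an antenna protein of photosystem II, fell in G39 by 1.07 ± 0.29, with 10.99 and 11.47 in G5, 9.71 and 9.95 in G39 and 10.49 to 11.28 in wild type. This call was lost without G39 replicate 3 (-0.95) or wild-type replicate 3 (-0.94) and with the replicate block (-0.88). At an unadjusted p below 0.05, 5 of the 9 were lower in G39 than in wild type and 5 lower than in G5, with 0 higher, beside 2250 and 1705 of all 14578 features. All 9 had a negative change in G39, beside 7112 of all 14578 features, with a median of -0.38, and the median in G5 was 0.002. Their mean level ran from 9.90 to 9.98 in the G39 samples, from 10.4 to 10.6 in G5 and from 10.4 to 10.5 in wild type. Among 67 plastid-encoded features, limma called 0 in either line, with 7 lower in G5 and 2 higher and 16 lower in G39 at an unadjusted p below 0.05. The same counts over all 14578 features were 439, 2259 and 2250. The plastid medians were -0.17 in G5 and -0.30 in G39.

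The 3 tested clock-related genes, GI, COR27 and AT4G33980, were called in neither line, with 0 at an unadjusted p below 0.05, and changed by -0.52 to -0.13. All 3 rose in the cold wild type, by 3.44 ± 0.18, 2.93 ± 0.30 and 2.32 ± 0.23. Of all 14578 features, 749 were higher and 439 lower in G5 at an unadjusted p below 0.05, and 2259 and 2250 in G39. The 7 flavonoid genes gave 0 calls in either line, with 1 higher in G5 and 3 higher in G39 at that level, and medians of 0.28 and 0.53. Of 10 cytochromes P450 of the CYP71B group none was called, with 1 lower in G5 and 1 in each direction in G39 at an unadjusted p below 0.05. ATG8E, of the autophagy family, was the member called among 7 and fell by 1.48 ± 0.23 in G39, with 3 of the 7 lower there at an unadjusted p below 0.05. Fes1B, a nucleotide exchange factor for HSP70, was the member called among 4 chaperone genes and fell by 1.27 ± 0.20 in G39, with 3 of the 4 lower there at an unadjusted p below 0.05. WRKY47 was the member called among 3 WRKY transcription factors and rose by 1.0 ± 0.22 in G39, or 0.88 without replicate 3 and 0.95 without wild-type replicate 1, where it was not called, as it was not with the replicate block or with arrays centred on their medians. The plastid lipocalin gene CHL, the tested member of 12 listed lipid genes, changed by -0.14 ± 0.24 in G5 and -0.86 ± 0.24 in G39.

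**Figure D3:**
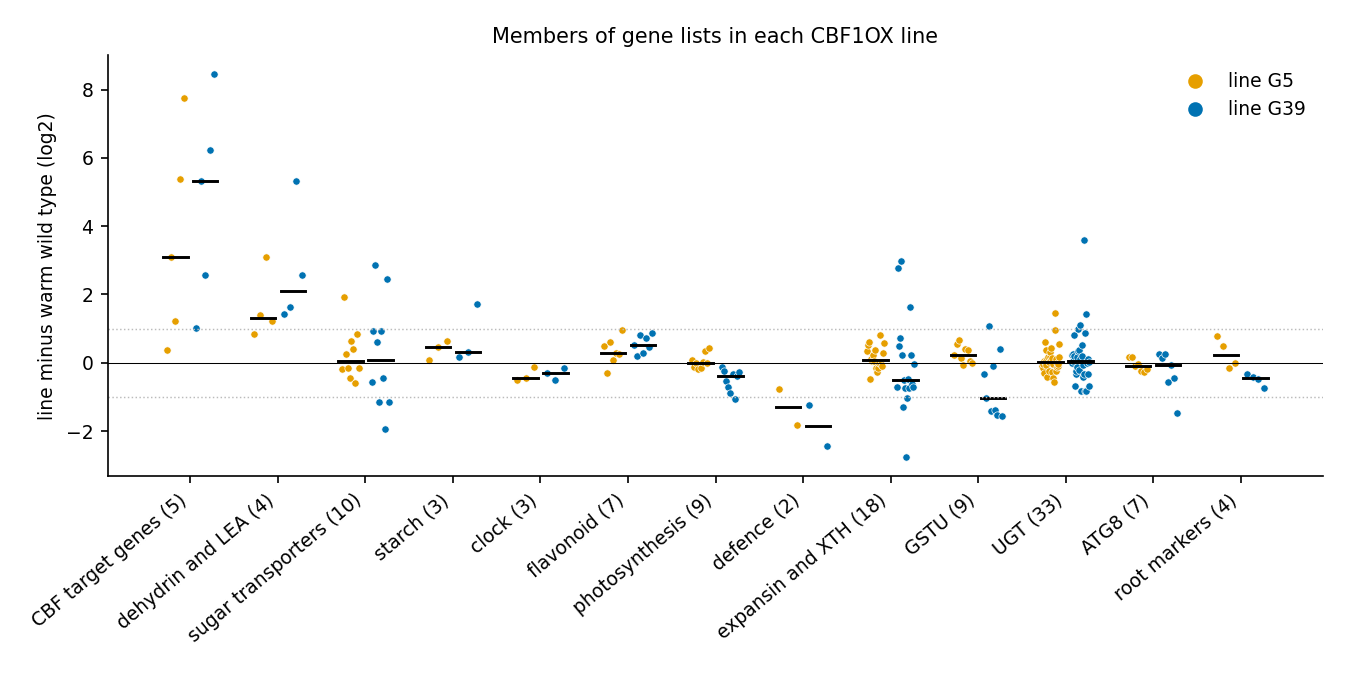
Each point is the log2 change of 1 tested gene against warm wild type in line G5 (orange) or line G39 (blue), grouped by gene list with the number of genes tested in brackets; black bars mark medians and dotted lines mark 2-fold. CBF targets and dehydrins lie above 0 in both lines, while sugar transporters run from -0.60 to 1.92 in G5 and from -1.93 to 2.87 in G39, and wall genes from -0.47 to 0.82 and from -2.76 to 2.99.

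Of the 8 named genes with the largest excess of G39 over G5, 3 had also risen in G5, AT1G16850, AT2G24560 and AT3G17130, and 5 were not called there. Genes picked for a large line difference favour those that moved little in G5. AT4G36700, of the cupin family, stood at 3.38 and 3.77 in G5, 9.55 and 8.94 in G39 and 3.46, 3.66, 3.75 and 3.75 in wild type. G39 exceeded G5 by 5.67 ± 0.76 (adjusted p = 1.8e-05). AT1G03990, a long-chain fatty alcohol oxidase, stood at 2.45 and 2.32 in G5, 6.63 and 6.06 in G39 and 2.45 to 2.49 in wild type. The line difference was 3.96 ± 0.52 (adjusted p = 1.3e-05), and the G5 samples did not exceed wild type. In G5 and wild type AT1G03990 lay near the lowest value measured, 2.16, so a rise under the floor would not show. The size of its line difference also depends on that floor. AT4G36700 was dim there too, under log2 4, but not near that lowest value. AT1G12030 (3.74 ± 0.53), AT1G78450 of the SOUL haem-binding family (3.22 ± 0.32) and AT4G18650, related to the dormancy gene DOG1 (3.10 ± 0.31), were likewise higher in G39 and not called against wild type in G5. The highest change of these 5 genes in G5 was 0.41, in AT1G78450. AT1G12030 also lay near the floor, at 2.53 and 2.35 in G5 and 2.23 to 2.32 in wild type.

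In the other direction, AT3G16670, of the Ole e 1 family of small secreted proteins, stood at 7.86 and 8.47 in G5, 3.12 and 3.37 in G39 and 8.78, 8.01, 8.65 and 8.72 in wild type. G39 was lower than G5 by -4.92 ± 0.37 (adjusted p = 1.2e-08), and the G5 samples reached into the wild-type range. AT2G16005, with a lipid-recognition domain, stood at 6.72 and 6.75 in G5 and 3.32 and 2.58 in G39, while wild type was itself spread, at 5.04, 6.50, 6.56 and 4.77. AT4G19430 stood at 5.69 and 6.25 in G5, 2.94 and 2.95 in G39 and 3.99 to 5.32 in wild type. For these 2 genes both G5 samples were above all wild-type samples and both G39 samples below, but the changes in G5, 1.02 ± 0.43 and 1.35 ± 0.47, were not called (adjusted p = 0.49 and 0.33). AT4G19430 fell in G39 by 1.68 ± 0.47 (adjusted p = 0.013), a call lost without replicate 3 (-1.67) or replicate 4 (-1.68).

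AT1G67860 was lower in G39 than in G5 by -3.11 ± 0.30 and AT2G36885 by -2.92 ± 0.38. JAL22, a jacalin-type lectin linked to the ER bodies of Brassicaceae, stood at 9.47 and 9.92 in G5, 6.75 and 6.63 in G39 and 8.69 to 9.48 in wild type, a line difference of -3.0 ± 0.33 (adjusted p = 1e-06). NAI2, needed to form ER bodies, was also lower in G39 than in G5, by -1.1 ± 0.18 (adjusted p = 0.00021), and PYK10, their main glucosidase, by -0.92 ± 0.23 (adjusted p = 0.0078), which is less than 2-fold. Both were listed here as root markers, although seedling shoots also hold ER bodies.

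The mean level of the 4 root markers tested, of 10 listed, was 7.22 to 7.295 in G5, 6.465 to 6.508 in G39 and 6.738 to 7.208 in wild type. All 4 were lower in G39 than in G5, beside 7104 of all 14578 features. The root-hair expansins EXPA7 and EXPA18, the other 2 tested, lay between 3.66 and 4.80 in all 8 samples, close to the level of the filter. The part of root tissue in the line difference was not tested, and in such bulk samples fewer cells of a type and less RNA per cell cannot be told apart.

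**Figure D4:**
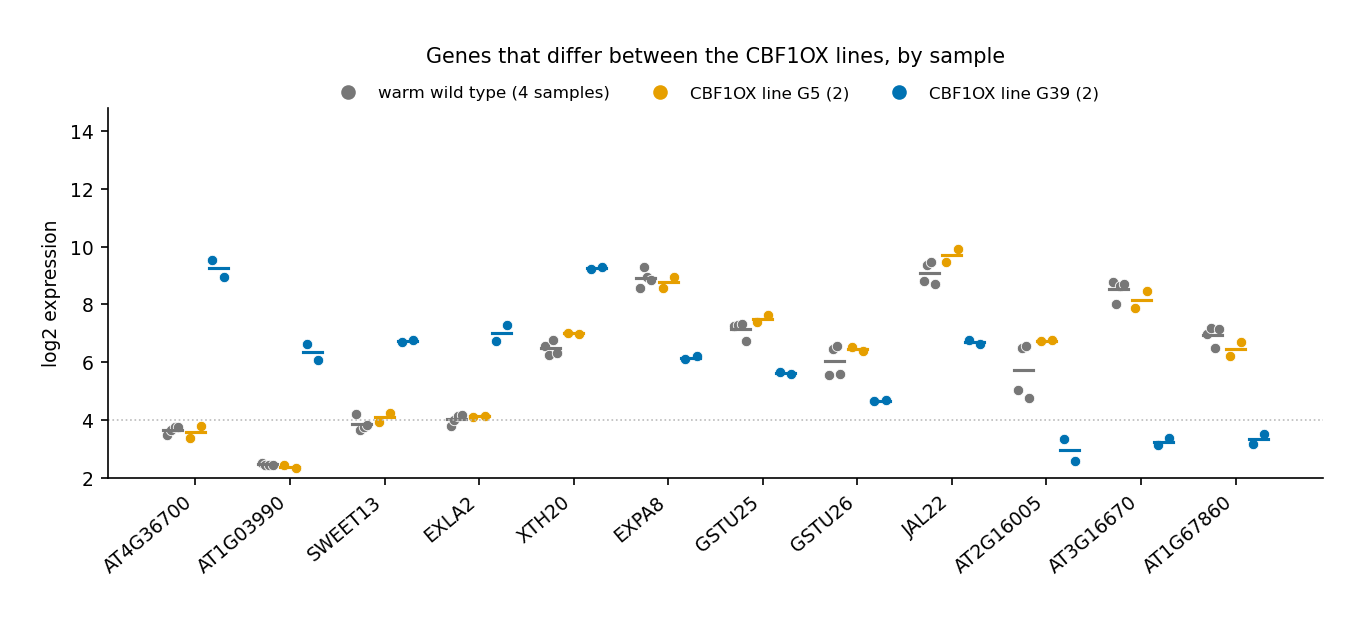
Log2 expression by sample for genes that differ between the CBF1OX lines, with warm wild type in grey (4 samples), line G5 in orange (2) and line G39 in blue (2), bars at group means and a dotted line at log2 4. The genes were picked for their line difference after their values were seen, and both G39 points stand well above or well below the G5 points in each.

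Over all features, G39 arrays correlated with CBF2OX and CBF3OX arrays at 0.964 to 0.983 and G5 arrays at 0.963 to 0.978. Against the mean of lines E2, E24, A28 and A30, G5 was higher for 188 features (1.29%) and lower for 108 (0.741%), and G39 was higher for 92 (0.631%) and lower for 100 (0.686%). These contrasts hold no wild-type sample. Without G5 replicate 1 the first count was 121. Without G39 replicate 4 the last 2 counts were 59 and 60. COR15A did not differ by a call in either line, at -0.41 ± 0.24 for G5 (adjusted p = 0.44) and 0.28 ± 0.24 for G39 (adjusted p = 0.7).

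G5 was below the other lines for AT2G24560 (-3.30 ± 0.34), AT1G16850 (-2.46 ± 0.23), AT1G14580 (-2.29 ± 0.29), LTI30 (-1.79 ± 0.15) and AT4G36700 (-2.24 ± 0.60). The last was not called without G5 replicate 1 (-2.04) or replicate 2 (-2.43), with only the compared groups fitted, with the replicate block, with no filter on low values or with a trended and robust prior. G5 was above the mean of these lines for AT4G19430 (2.92 ± 0.43), AT3G16670 (2.74 ± 0.30), AT2G16005 (2.65 ± 0.39) and AT1G66800 (2.17 ± 0.21). For AT2G16005 these lines were spread, with E2 at 2.91, E24 at 5.93, A28 at 2.88 and A30 at 4.605, beside 6.735 in G5. For AT3G16670 E24, at 6.955, came nearest to G5, at 8.165. For AT1G66800 the 4 lines lay close, from 4.415 to 4.995, beside 6.945 in G5. LTI30 in G39 was 0.45 ± 0.15 above the other lines, which was not called (adjusted p = 0.11).

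G39 in turn exceeded the other lines in AT4G36700 (3.43 ± 0.60, adjusted p = 0.0012), AT1G03990 (3.16 ± 0.41), AT1G12030 (2.79 ± 0.42) and AT1G78450 (2.33 ± 0.25). The call of AT4G36700 was lost without G39 replicate 3, where the difference was 3.13, and with only the compared groups fitted. G39 was lower than the mean of these lines in AT5G48490, related to lipid-transfer proteins (-2.25 ± 0.25), AT3G16670 (-2.18 ± 0.30), AT1G54820 (-1.72 ± 0.23) and the expansin EXPA8 (-1.65 ± 0.27). For AT3G16670 line E2, at 3.455, was nearly as low as G39, at 3.245. E24 stood at 6.955, A28 at 4.945 and A30 at 6.33, a spread between lines that the SE does not hold. AT5G48490 was at the wild-type level in CBF2OX (0.01 ± 0.37) and CBF3OX (-0.13 ± 0.37), and in the cold wild type it fell by 2.70 ± 0.37. EXPA8 fell by 5.15 ± 0.47 in the cold wild type. AT4G36700, AT1G03990, AT1G12030 and AT1G78450 were not called in the cold wild type, where AT1G12030 and AT1G78450 each differed by -0.07.

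**Figure D5:**
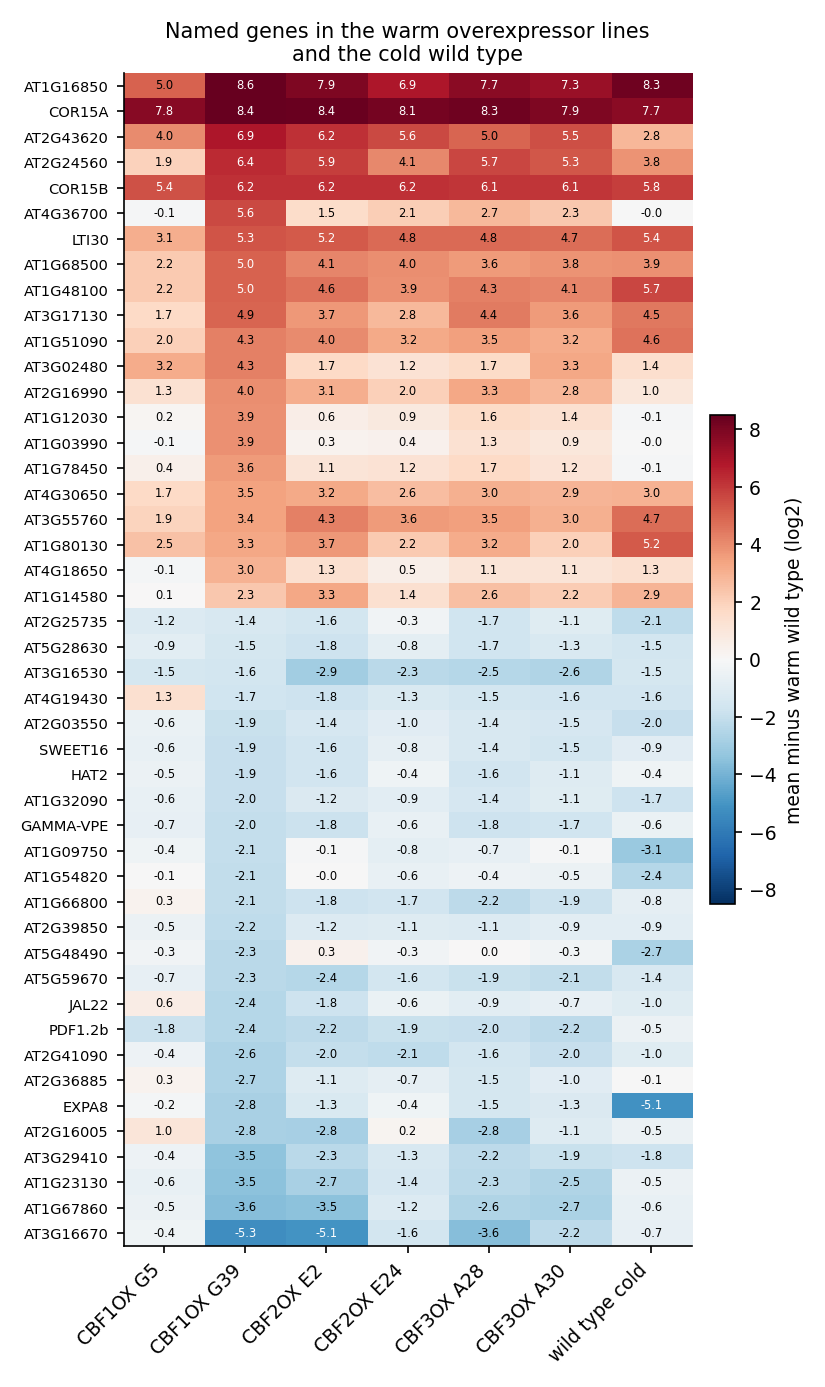
Mean log2 difference from warm wild type for 46 named genes (rows) in CBF1OX lines G5 and G39, CBF2OX lines E2 and E24, CBF3OX lines A28 and A30 and the cold wild type (columns), with red for higher and blue for lower; all columns share the warm wild-type samples. COR15A is deep red in every column, G5 is paler than G39 in almost every row, and AT4G36700, AT1G03990 and AT1G12030 are near 0 in the cold wild type. Rows were picked by the pooled change, the line difference or the contrasts with CBF2OX and CBF3OX, so a paler G5 follows in part from the choice.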

How the data were processed

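Transcript levels of the aerial part of Ws-2 plants were measured on an Affymetrix array, after column extraction of RNA per the labels' protocols. The authors deposited log2 expression values for each probe set. GCRMA and limma appear in the submitters' processing notes, and their versions and the probe definitions used are not stated there. Whether the arrays were normalized as a batch is also unknown. The values ran from 2.16 to 14.53, which gave the log base. GCRMA subtracts background, so dim probe sets lie near a floor and folds from there depend on it. The number of arrays limits the precision.

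The platform annotation gave 13513 of 22810 probe sets 1 gene, 503 several and 8730 none, with 64 controls left out. Of the 13513, 13436 matched RefSeq, assembly TAIR10.1, used for names only. The probe set with the highest mean stood for a gene. Features above log2 4 in at least 4 of the 28 arrays were tested, 14578 in all. Models were fitted with limma 3.58.1 (lmFit, eBayes) in R 4.3.3, with statmod 1.5.0, to all 28 arrays, CBF2DN included, with 7 group means for the pooled comparison and 12 line means for the lines, and tested on simulated data. Tables and plots used Python 3.11.15, numpy 2.4.6, pandas 2.3.3 and matplotlib 3.10.9. Calls needed an adjusted p below 0.05 over all features and a 2-fold change, with thresholds applied after rounding values to 6 significant digits.

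The members and gene lists were chosen with earlier results of these data known. Named genes are the 15 highest and 15 lowest called without overlap for the pooled group, list members, the 8 largest line differences per direction, the 4 largest per direction against CBF2OX and CBF3OX, and unnamed probe sets with the 2 largest rises and falls or raised by at least 4 in 1 construct and under 2-fold in the others. List members called only in a line comparison were named after their values were seen. Of 222 genes listed by name, 53 had a named probe set. Lists for raffinose, proline, gibberellin, flowering and abscisic acid had none and were not analysed here, and promoter sequences were not used here.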

Additional observations from a re-analysis of the deposited data

Results flagged for a closer look

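The lines G5 and G39 carry the same construct and their difference was tested itself, with 363 features called higher and 495 lower in G39. Among the features named here, 29 were called higher in G39 than in G5 and 36 lower. On the log2 scale, the features higher in G39 by more than 3 were AT4G36700 (5.67), AT2G24560 (4.42), AT1G03990 (3.96), AT1G12030 (3.74), AT1G16850 (3.62), AT3G17130 (3.26), AT1G78450 (3.22) and AT4G18650 (3.10). Between 2 and 3 lay EXLA2 (2.89), AT2G43620 (2.88), AT1G68500 (2.80), AT1G48100 (2.78), AT2G16990 (2.65), SWEET13 (2.62), 254074_at (2.55), AT1G51090 (2.26), XTH20 (2.25), LTI30 (2.24), AT1G14580 (2.24) and UGT72B3 (2.15). The differences of 2 or less belonged to 264511_at (2.00), AT4G30650 (1.78), SWEET1 (1.62), AT3G55760 (1.51), PUB19 (1.48), COR47 (1.36), UGT74D1 (1.31), EXLA1 (1.19) and WRKY47 (1.1).

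Over all features tested the line difference went down to -6.82. Of the features named here, those lower in G39 by 3 or more were AT3G16670 (-4.92), 256766_at (-4.62), AT2G16005 (-3.78), AT1G67860 (-3.11), AT3G29410 (-3.04), AT4G19430 (-3.02) and JAL22 (-3.0). Between -3 and -2 lay AT2G36885 (-2.92), AT1G23130 (-2.88), EXPA8 (-2.60), AT1G66800 (-2.41), AT2G41090 (-2.20), AT1G54820 (-2.04) and AT5G48490 (-2.02). Smaller decreases were those of GSTU25 (-1.88), GSTU26 (-1.79), AT2G39850 (-1.69), AT1G09750 (-1.66), AT5G59670 (-1.64), GSTU28 (-1.58), GSTU18 (-1.58), GSTU22 (-1.57), XTH19 (-1.52), HAT2 (-1.45), LHCB4.2 (-1.40), AT1G32090 (-1.36), SWEET16 (-1.33), ATG8E (-1.31), AT2G03550 (-1.28), GAMMA-VPE (-1.27), UGT76B1 (-1.26), UGT71C1 (-1.24), NAI2 (-1.1), EXPB3 (-1.1), EXLB1 (-1.05) and EXPA15 (-1.01).

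Some samples stood apart from the other 3 of their group when the gap is set against the range of the group, which can be narrow: for AT1G03990 1 sample was at 2.49 and the other 3 at 2.45. In warm wild type, 1 sample lay above the rest for APL3 (3.89), AT1G03990 (2.49), AT1G68500 (5.31), AT1G78450 (3.20), AT2G16990 (3.96), AT4G18650 (4.16), COR15A (5.01), SBE2.2 (8.72) and UGT71C3 (4.76). It lay below the rest for AT2G24560 (2.37), AT3G16530 (7.05), AT3G16670 (8.01), GSTU25 (6.73) and XTH16 (5.48). In CBF1OX, the lowest sample stood apart for PDF1.2 (4.56) and for probe set 254075_at (3.12). These 16 cases arose among 202 groups looked at, 7.92%, and most were in warm wild type. Chance gives about 1 in 20 for 4 samples of 1 kind. That rate does not hold for CBF1OX, where 2 samples of each of 2 lines often split into pairs. For COR15A, the wild-type sample at 5.01 still lay far below all CBF1OX samples.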

How the results depend on the processing

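The pooled rises, 263 as reported, numbered 27 with only the 8 compared samples fitted and 140 with each line's mean as 1 sample, and 124 to 367 when samples were left out in turn. The pooled falls, 106, numbered 8, 23, 49 with no filter on low values and 167 with line means in the fit, and 16 to 262 when samples were left out. For G5 the 68 rises became 31 to 69 and the 8 falls 0 to 11, or 5 with no filter. At the 0, without replicate 1, limma gave 248 lower features at an unadjusted p below 0.05. The ranges were 526 to 608 and 566 to 611 for G39 and 315 to 364 and 414 to 493 for the line difference. Against CBF2OX and CBF3OX the 188 higher in G5 became 121 to 188, and the 92 higher and 100 lower in G39 became 59 to 92 and 60 to 100. No other alternative moved a count by over 1.5 times, and the cause was not tested.

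Whether the replicate numbers pair the samples could not be told. Deviations of same-numbered CBF1OX and wild-type samples from their group means correlated at 0.051, 0.078, -0.020 and 0.179. In CBF1OX these deviations contain the difference between the lines, which can hide a shared deviation. With the replicate block the counts were 252 and 91 for the pooled group, 72 and 9 for G5, 560 and 573 for G39, and 316 and 424 between the lines. Of 286 calls of named features, 87 were lost under at least 1 alternative and 0 changed direction.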

Other observations

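Among unnamed probe sets, 2 others were chosen because they were raised by at least 4 in 1 construct and by under 2-fold in the others, so these values are a description and no gene name is given to them. Probe set 254075_at stood at 3.12 and 3.61 in G5, 3.62 and 3.62 in G39 and 3.12 to 3.63 in warm wild type. It was higher by 8.39 ± 0.27 in CBF2OX and by 4.06 ± 0.27 in the cold wild type. Probe set 254066_at stood at 3.57 and 3.98 in G5, 3.50 and 3.92 in G39 and 3.50 to 4.17 in warm wild type. It was higher by 8.38 ± 0.20 in CBF3OX and by 4.41 ± 0.20 in the cold wild type. Both CBF1OX lines lay within the wild-type range for these 2 probe sets, and limma gave changes between -0.04 and 0.21, none of them called.

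On the second principal component of all 28 arrays, which held 15.7% of the variance, warm wild type lay at -26.8 to -25.2, G5 at -7.7 to -5.3 and G39 at 43.96 to 44.1. The CBF2OX and CBF3OX lines lay between the CBF1OX lines, from 7.44 for an E24 sample to 33.2 for an E2 sample, and the cold wild type at 0.54 to 2.11. G39 was thus the most distant line from warm wild type on this axis, and G5 the nearest of the 6 warm lines that overexpress CBF1, CBF2 or CBF3.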
